A study of Mus musculus with 15 samples.

Results

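The constant genes of the mouse antibody chains and the joining chain gene were followed in liver and lung after long-term phytosterol feeding. The members were the 10 genes Ighm, Ighd, Igha, Ighg1, Ighg2b, Ighg2c, Ighg3, Ighe, Igkc and Jchain, found by gene name among the 54532 genes of each tissue's table, and all 10 were listed in both. The data came from 15 RNA-seq libraries of 9 male wild-type C57BL/6J mice, an inbred laboratory strain, and 6 of these mice gave both tissues. The control diet group (CS) had 4 livers and 3 lungs, and the phytosterol diet group (PS) had 5 livers and 3 lungs. Replicates are numbered within each tissue and diet, so a number can stand for different mice in liver and lung. PS lung replicates 2 and 3 came from the mice of PS liver replicates 3 and 5. The other lungs share their number with the liver of the same mouse. The diets had the same base, and the PS diet carried 2% phytosterols, which are plant sterols that resemble cholesterol. The labels give an age of 28 weeks. The starting age of the mice and the feeding times in the methods together add up to more. Each library came from a different mouse within its tissue, so the tests below rest on the spread between animals. RNA came from whole tissue, and no removal of blood from the vessels is described, so antibody transcripts could come from resident cells or from cells in the blood, and fewer cells of a type cannot be told apart from less RNA per cell.

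An antibody consists of heavy and light chains, each with a variable part that binds the target and a constant part that sets the class. A B cell first makes IgM and IgD, whose constant parts are encoded by Ighm and Ighd, and can later switch the same variable part to IgG, IgE or IgA by joining it to another constant gene. Plasma cells are the descendants of B cells that secrete antibody, and they carry far more antibody mRNA per cell than a resting B cell. Igkc encodes the constant part of the kappa light chain, the main light chain in mice. The joining chain, encoded by Jchain, links IgM and IgA units into larger complexes that can be carried across the epithelium, and IgA is the main antibody class at mucosal surfaces such as the airway. In this strain Ighg2c stands in the place of the Ighg2a gene of other strains.

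The 8 heavy chain constant genes lie in a row on the minus strand of chromosome 12 (GRCm38), from Ighm at chr12:113418558-113422730, past Ighd at chr12:113406604-113416324, to Igha at chr12:113254830-113260236. The IgG genes and Ighe lie between Ighd and Igha, with Ighg3 at chr12:113356224-113361232, Ighg1 at chr12:113325240-113330523, Ighg2b at chr12:113302965-113307933, Ighg2c at chr12:113285325-113288932 and Ighe at chr12:113269260-113273248. Igkc is a single exon at chr6:70726435-70726966 on the plus strand, and Jchain lies at chr5:88519809-88527891 on the minus strand. The start and end of all 10 members were the same in GENCODE M21.

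The classes that bind the joining chain can be seen in the end of the secreted coding sequence, which is shown here since it sets Ighm and Igha apart from the IgG genes. Each line gives the last 60 coding bases of the shortest annotated transcript, 5′ to 3′ up to the stop codon, with cysteine codons in capitals.
Ighm, chr12:113420867-113420926, minus strand: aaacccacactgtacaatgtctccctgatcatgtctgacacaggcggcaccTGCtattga
Igha, chr12:113258768-113258827, minus strand: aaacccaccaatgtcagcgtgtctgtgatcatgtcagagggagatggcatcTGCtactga
Ighg1, chr12:113328976-113329035, minus strand: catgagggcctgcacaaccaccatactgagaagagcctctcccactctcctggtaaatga
Ighg2c, chr12:113287389-113287448, minus strand: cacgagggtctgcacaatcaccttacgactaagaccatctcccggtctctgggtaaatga
Ighm and Igha share a cysteine codon 2 codons before the stop, in the tail through which these chains bond to the joining chain. The printed ends of Ighg1 and Ighg2c held 0 cysteine codons, as did those of Ighg2b and Ighg3. The IgG genes are close copies of each other, and the longest run shared exactly was 88 bases, between Ighg2b and Ighg3. None of the 10 members shared a window of 150 bases, the read length, with an annotated transcript of another gene, and no exon of another gene overlapped theirs. The counts are per gene, so secreted and membrane forms are not separated.

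Library totals ranged from 14410117 to 17625179 counts in liver and from 17934930 to 19396057 in lung. The members together took 0.00805% to 0.0487% of the counts of a liver and 0.426% to 1.69% of those of a lung. Hepatocyte markers were high in every liver, with a summed level of 74736 to 114496 CPM (counts per library size, scaled by TMM), and 3.50 to 101 CPM in the lungs, where the highest value was in 1 CS library. Lung epithelium markers had a summed level of 62556 to 100037 CPM in the lungs and at most 6.13 CPM in the livers. Heart muscle markers had a summed level of 158 to 237 CPM in the CS lungs and varied more in the PS lungs, from 32.4 to 416 CPM.

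Igkc was the highest member in both tissues. Levels between genes were compared in FPKM, the deposited counts per gene length and library, and the 2 tables were normalized separately, so tissues are only set side by side. In the CS lungs Igkc had a median of 4862 FPKM and Igha, the IgA heavy chain, followed with 923 FPKM. Next came Ighg2c (471 FPKM), Jchain (408 FPKM), Ighm (161 FPKM), Ighg2b (112 FPKM), Ighg1 (37.9 FPKM), Ighd (17.8 FPKM), Ighg3 (5.08 FPKM) and Ighe (0.033 FPKM). In this order the ranges over the 3 libraries did not meet between Igkc and Igha, Jchain and Ighm, Ighg2b and Ighg1, or Ighg3 and Ighe, while all other neighbours overlapped. In the CS livers Igkc had a median of 64.5 FPKM and Igha of 9.81 FPKM, and the order from there was Ighg2c, Ighm, Jchain, Ighg2b, Ighg1, Ighd and Ighg3. The ranges did not meet between Igkc and Igha, and all further neighbours overlapped. In the PS livers the median of Ighg2c stood above that of Igha, at 9.49 to 34.3 FPKM beside 10.4 to 21.6 FPKM with overlap, and Ighm (2.46 FPKM) stood below Jchain (4.56 FPKM), with ranges that did not meet. The IgE gene Ighe had 0 counts in all 9 livers, which allows up to 3 counts in each library, and 1 to 8 counts per lung.

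**Figure D1:**
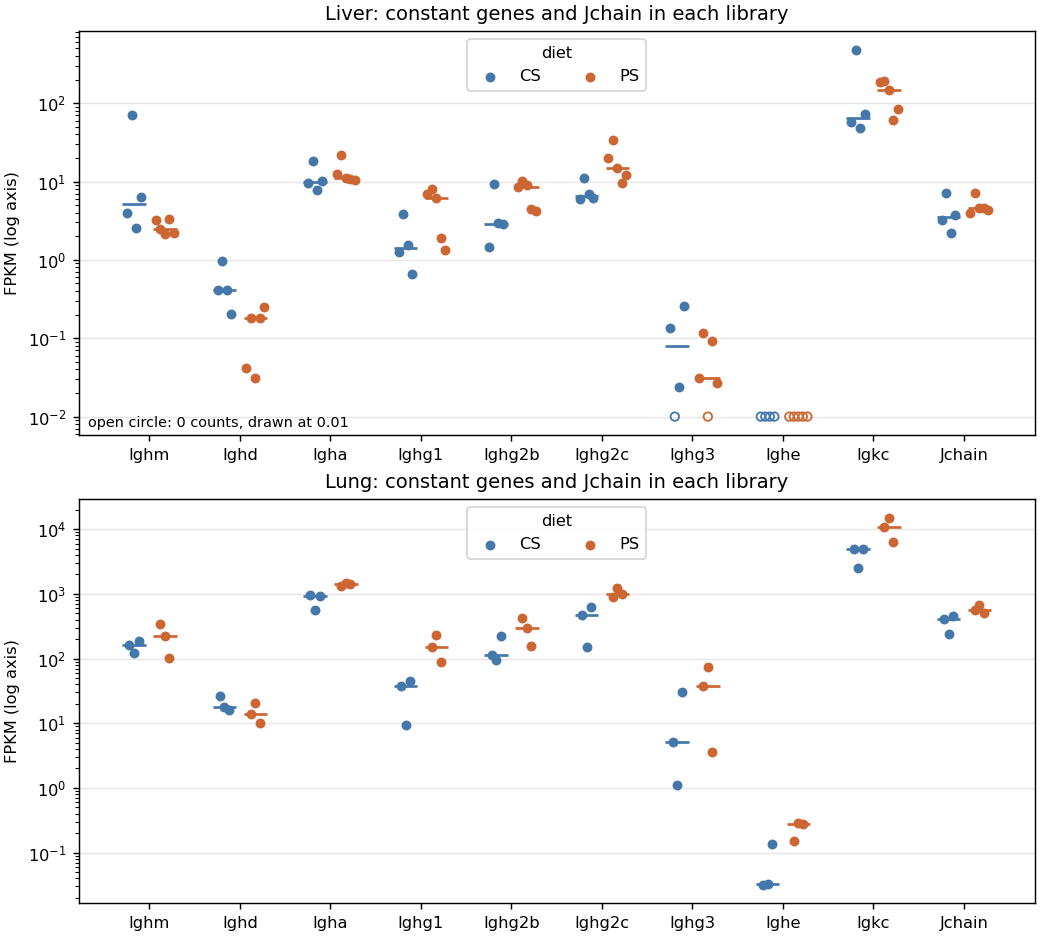
FPKM of the 10 members in each library on a log axis, with livers in the upper panel and lungs in the lower one. Points are libraries, bars are group medians, and open circles mark 0 counts. In the lung all 3 PS libraries lie above the 3 CS libraries for Igkc, Igha, Ighg1, Ighg2c, Jchain and Ighe. Ighe had few counts, with 4 in both CS replicate 3 and PS replicate 1. In the liver 1 CS library lies far above the others for Ighm and Igkc.

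In the lung, the switched heavy chain genes, the kappa chain and the joining chain had higher levels in the PS group, but none of the differences passed an adjusted p of 0.05. Of the 10 members, 9 passed the filter on low counts and were tested, and 0 passed in either direction with edgeR's quasi-likelihood test, adjusted over all genes. Of all genes tested in the lung, 4.8% were called higher and 4.43% lower. At an unadjusted p of at most 0.05 there were 6 members higher and 0 lower, where 15.6% of all genes were higher. For 5 of the 9 tested members every PS library stood above every CS library, against 17.3% of all genes, and for 0 members every PS library stood below, against 18.8% of all genes. The median log2 fold change of the 9 tested members was 1.03, beside 0.0052 for all genes.

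Igkc had 2569, 1320 and 2622 CPM in CS replicates 1 to 3 and 5595, 7917 and 3364 CPM in the PS replicates. The lowest PS lung was above the highest CS lung, and CS replicate 2 was the lowest of all. The log2 fold change was 1.37 (SE 0.37, edgeR adjusted p = 0.0502). The lambda light chain constant gene Iglc1, which is no member, rose with a log2 fold change of 1.66 (SE 0.33, edgeR adjusted p = 0.0286). It was the only 1 of 3 tested lambda constant genes to pass. Iglc2 and Iglc3 had values of 0.69 and 0.61 (edgeR adjusted p = 0.261 and 0.432) and overlapped between the diets.

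Igha had 2569, 1477 and 2471 CPM in the CS lungs and 3467, 3831 and 3786 CPM in the PS lungs. The PS values lay close together and above all CS values, with a log2 fold change of 0.77 (SE 0.24, edgeR adjusted p = 0.0749). Jchain had 1019, 592 and 1136 CPM in the CS lungs and 1409, 1667 and 1281 CPM in the PS lungs. Its groups did not overlap either, and its log2 fold change was 0.67 (SE 0.26, edgeR adjusted p = 0.121). Over the fits that left out a lung the Jchain value ranged from 0.41 to 0.89.

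Among the IgG genes, Ighg1 showed the largest difference. It had 97.5, 24.4 and 116 CPM in the CS lungs and 379, 597 and 231 CPM in the PS lungs, a log2 fold change of 2.34 (SE 0.60, edgeR adjusted p = 0.053). Even the lowest PS library was above the highest CS library, although the PS libraries differed among themselves. Ighg2c, whose product is the IgG subclass tied to Th1-type responses in this strain, had 621, 199 and 831 CPM in CS and 1180, 1616 and 1349 CPM in PS (log2 fold change 1.33, SE 0.44, edgeR adjusted p = 0.0841). Ighg2b had 298, 253 and 596 CPM in CS and 1126, 796 and 418 CPM in PS, so PS replicate 3 lay within the CS range (log2 fold change 1.03, SE 0.41, edgeR adjusted p = 0.133). Ighg3 was spread most, with 12.7, 2.78 and 76.8 CPM in CS and 93.7, 184 and 9.10 CPM in PS, and its SE of 1.53 was close to its log2 fold change of 1.64 (edgeR adjusted p = 0.522). The Ighg3 value was 3.68 without CS replicate 3 and 0.74 without PS replicate 2.

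The genes of the unswitched classes, Ighm and Ighd, overlapped between the diets. Ighm had 301, 227 and 354 CPM in the CS lungs and 633, 417 and 193 CPM in the PS lungs, so that the lowest value of all was in the PS group (log2 fold change 0.50, SE 0.38, edgeR adjusted p = 0.402). The Ighm value was 0.047 without PS replicate 1 and 0.84 without PS replicate 3 (edgeR adjusted p = 0.932 and 0.0629). Ighd, which marks mature B cells that have not switched, was the only tested member with a negative value. Its levels were 49.5, 33.8 and 30.1 CPM in CS and 25.9, 38.0 and 19.4 CPM in PS (log2 fold change -0.45, SE 0.27, edgeR adjusted p = 0.299), and the groups overlapped. Over the fits that left out a lung the Ighd value ranged from -0.74 to -0.22. Ighe, at 1, 1 and 4 counts in CS and 4, 8 and 8 counts in PS, did not pass the filter.

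Which members passed in the lung depended on the test. DESeq2's Wald test, the tool of the study's methods, called 5 members higher, namely Igha, Ighg1, Ighg2c, Igkc and Jchain, with adjusted p-values from 0.000489 (Igkc) to 0.0448 (Jchain), where 8.97% of all genes were called higher. With at least 10 counts required in every library edgeR called Ighg1 and Igkc, and with no filter Igha and Igkc, beside 5.19% and 4.25% of all genes. Without PS replicate 3 it called Igkc (log2 fold change 1.64, adjusted p = 0.0232), beside 5.55% of all genes, and with the trend over gene length removed it also called Igkc, beside 6.53% of all genes. DESeq2 size factors, limma on FPKM, scaling without immunoglobulin genes and a block for replicate number called no member. Leaving out any other single lung called none either.

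**Figure D2:**
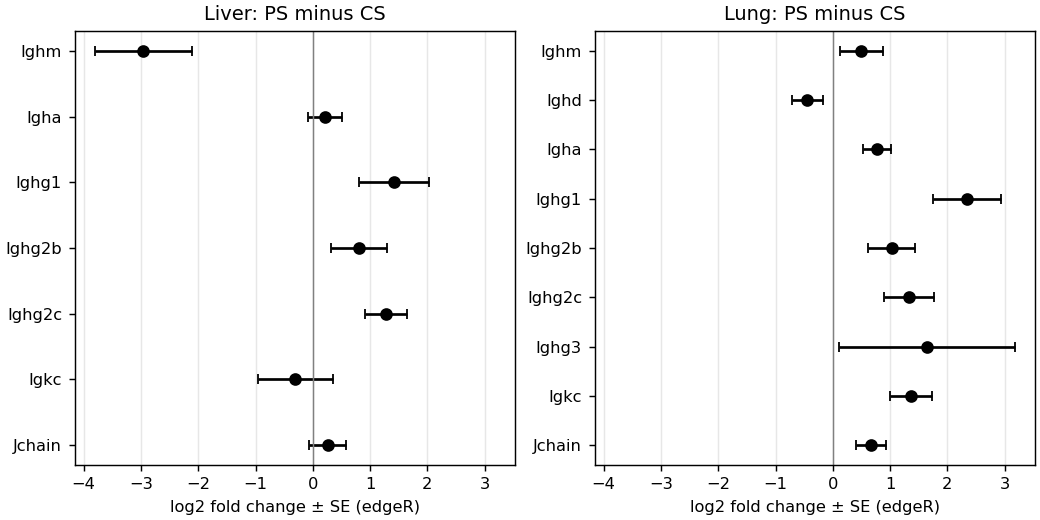
Log2 fold changes (PS minus CS) from edgeR with their SE for the members tested, 7 in the liver and 9 in the lung. In the lung 8 of 9 values lie above 0, and in the liver Ighm stands apart at -2.96.

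In the liver, antibody transcripts were sparse, Ighg1, Ighg2b and Ighg2c had higher group means in the PS group, and Ighm was high in 1 CS liver. Of the 10 members 7 were tested, since Ighd, Ighg3 and Ighe did not pass the filter, and 0 passed an adjusted p of 0.05. Among all genes tested in the liver 0.00758%, a single gene, was called higher, and 0 were called lower, with a median log2 fold change of -0.03 over all genes and 0.26 over the 7 members. At an unadjusted p of at most 0.05 there were 2 members higher, Ighg2c and Ighg1, and 1 lower, Ighm, where 3.96% of all genes were higher and 3.58% lower.

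Ighm had 7.34, 131, 4.70 and 11.7 CPM in the CS livers and 5.95, 4.55, 4.08, 6.12 and 4.11 CPM in the PS livers. CS replicate 2, with 1948 counts, stood far above the other CS livers, whose highest value was 182 counts, and the groups overlapped. The log2 fold change was -2.96 (SE 0.85, edgeR adjusted p = 0.344), and without this library it was -0.67 (adjusted p = 0.33). Ighd was listed with 14, 27, 13 and 6 counts in CS and with 1, 6, 1, 6 and 7 counts in PS.

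The same liver carried much of the kappa signal. Igkc had 29.6, 256, 24.9 and 37.5 CPM in CS and 98.7, 98.7, 78.8, 31.6 and 44.3 CPM in PS. With all libraries the log2 fold change was -0.30 (SE 0.66, edgeR adjusted p = 0.971), and without CS replicate 2 it turned to 1.20 (adjusted p = 0.173). In the other 3 CS livers Igkc stayed at or below 37.5 CPM, and 4 of the 5 PS livers were above that.

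Ighg2c had 7.84, 14.5, 9.05 and 7.88 CPM in the CS livers and 26.2, 44.6, 19.9, 12.2 and 15.8 CPM in the PS livers. The only overlap was that PS replicate 4 stood below CS replicate 2, and the log2 fold change was 1.28 (SE 0.37, edgeR adjusted p = 0.344). Ighg1 had 3.20, 9.97, 3.95 and 1.66 CPM in CS and 17.6, 20.5, 16.1, 4.78 and 3.45 CPM in PS (log2 fold change 1.41, SE 0.61, edgeR adjusted p = 0.636). Its PS values fell apart into 3 high and 2 low libraries, of which the low ones lay within the CS range. Without CS replicate 2 the Ighg1 value was 2.08 (edgeR adjusted p = 0.16). Ighg2b had 3.86, 25.1, 7.60 and 7.43 CPM in CS and 22.3, 26.7, 24.4, 11.5 and 11.2 CPM in PS (log2 fold change 0.81, SE 0.49, edgeR adjusted p = 0.763). CS replicate 2 was the only CS liver to reach the PS values, and leaving it out gave 1.61 (edgeR adjusted p = 0.0722). Ighg3 had at most 10 counts in a liver.

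Igha and Jchain overlapped between the diets in the liver. Igha had 24.8, 48.5, 20.1 and 26.4 CPM in CS and 33.3, 56.5, 29.2, 27.8 and 27.5 CPM in PS (log2 fold change 0.22, SE 0.30, edgeR adjusted p = 0.944). Jchain had 8.0, 18.1, 5.40 and 9.28 CPM in CS and 9.74, 17.4, 11.5, 11.2 and 10.9 CPM in PS (log2 fold change 0.26, SE 0.32, edgeR adjusted p = 0.931). In both genes the highest values were those of CS replicate 2 and PS replicate 2, and the other 3 CS livers lay below every PS liver. Without CS replicate 2 the log2 fold change was 0.55 for Igha (edgeR adjusted p = 0.35) and 0.69 for Jchain (edgeR adjusted p = 0.253). Over all fits that left out a liver, Jchain ranged from 0.046 to 0.69.

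The diet effect in the lung was set against that in the liver by an interaction term over all 15 libraries. This fit treated the libraries as independent, although 6 mice gave both tissues. Of the 9 members tested 0 passed an adjusted p of 0.05, and of all genes tested 0.0226% passed. The largest point value was that of Ighm at 3.39 (SE 1.12, edgeR adjusted p = 0.341), which again rests on CS liver replicate 2. A different response of these genes in the tissues was therefore not detectable with these libraries.

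The make-up of the heavy chain transcripts was read as the share of each constant gene in the sum over the 8 genes, in counts per gene length, with 1 value per mouse. In the liver the IgG genes took a larger share in the PS group and Ighm a smaller one. The 4 IgG genes together made up 39.0%, 21.4%, 51.8% and 37.1% in the CS livers and 69.0%, 68.5%, 69.8%, 52.8% and 57.9% in the PS livers. Every PS liver was above every CS liver, by a margin of less than 1 percentage point between PS replicate 4 and CS replicate 3. The means were 37.4% ± 12.5 (SD, n = 4) and 63.6% ± 7.77 (SD, n = 5), and the two-sided exact permutation p was 0.00794, the smallest this design allows. The p-values of these shares are unadjusted, and 10 shares were compared in each tissue, the sum of the IgG genes among them. The shares of 1 library sum to 100%, so they are not independent of each other.

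The Ighm share was 17.4%, 61.7%, 11.5% and 23.9% in the CS livers and 6.24%, 3.20%, 4.98%, 11.1% and 7.21% in the PS livers, again without overlap (exact permutation p = 0.00794). CS replicate 2 was the highest, and without it the Ighm share still differed by -11.1 percentage points and the IgG share by 20.9 percentage points, with exact permutation p-values of 0.0179 and 0.0357, where the smallest possible was 0.0179. In the 6 livers with under 7% mitochondrial counts, a choice made after seeing the data, the IgG share was 42.7% ± 7.99 (SD, n = 3) in CS and 59.7% ± 8.01 (SD, n = 3) in PS. The Ighm share was 17.6% ± 6.18 (SD, n = 3) and 7.17% ± 3.95 (SD, n = 3). Neither overlapped, and the exact permutation p was 0.1 for both, the smallest possible with 3 against 3. Among single IgG genes, the Ighg1 share was 4.62% ± 2.06 (SD, n = 4) and 9.78% ± 4.34 (SD, n = 5), which overlapped (exact permutation p = 0.0794). The Ighg2b share was 9.65% ± 2.90 (SD, n = 4) in CS and 15.8% ± 3.11 (SD, n = 5) in PS (exact permutation p = 0.00794). The Ighg3 share, on at most 10 counts a library, had the opposite direction, with 0.421% ± 0.456 (SD, n = 4) and 0.121% ± 0.117 (SD, n = 5) (exact permutation p = 0.238). The Ighg2c share was 22.7% ± 9.35 (SD, n = 4) and 37.9% ± 5.01 (SD, n = 5) (exact permutation p = 0.0159). The Ighd share fell from 1.32% ± 0.586 (SD, n = 4) to 0.361% ± 0.331 (SD, n = 5), on at most 27 counts a library (exact permutation p = 0.0238). The calls for Ighg2c and Ighd were lost when some single mice were left out. The exact permutation p of the Ighg2c share was 0.0536 without CS replicate 2 and 0.0571 without PS replicate 1, 2, 3 or 5. For the Ighd share it was 0.0536 without CS replicate 1 or 3 and 0.0571 without PS replicate 1, 2, 3 or 4. The Igha share was 32.7% ± 11.4 (SD, n = 4) and 29.5% ± 5.04 (SD, n = 5), with an exact permutation p of 0.587. Without CS replicate 2 the Igha share differed by -8.71 percentage points (exact permutation p = 0.0536).

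In the lung the mean IgG share was also higher in PS, but 3 against 3 mice cannot give an exact two-sided p below 0.1. The IgG genes made up 35.1%, 27.0% and 45.0% in the CS lungs and 47.5%, 52.0% and 45.2% in the PS lungs, so the groups did not overlap but PS replicate 3 nearly touched CS replicate 3 (exact permutation p = 0.1). The share of Igha, the largest single heavy chain gene in the lung, was 52.6% ± 6.85 (SD, n = 3) in CS and 44.4% ± 5.50 (SD, n = 3) in PS (exact permutation p = 0.2). Ighg1 made up 1.76% ± 0.667 (SD, n = 3) in CS and 4.81% ± 1.70 (SD, n = 3) in PS, without overlap (exact permutation p = 0.1). The Ighd share was 1.37% ± 0.559 (SD, n = 3) and 0.457% ± 0.105 (SD, n = 3), also without overlap (exact permutation p = 0.1). The other IgG genes overlapped. The Ighg2b share, which was higher in every PS liver, was 9.03% ± 2.42 (SD, n = 3) in CS lungs and 9.15% ± 3.94 (SD, n = 3) in PS lungs (exact permutation p = 1). The exact permutation p was 0.2 for the Ighg2c share, at 24.3% and 33.2%, and 0.6 for the Ighg3 share, at 0.630% and 1.14%. The Ighm share was 10.3% ± 2.10 (SD, n = 3) and 6.89% ± 3.55 (SD, n = 3), with overlap (exact permutation p = 0.3). The kappa share among kappa and lambda constant genes was 93.2% in the CS lungs and 93.4% in the PS lungs, and 95.2% and 95.8% in the livers, with exact permutation p-values of 0.8 and 0.603.

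**Figure D3:**
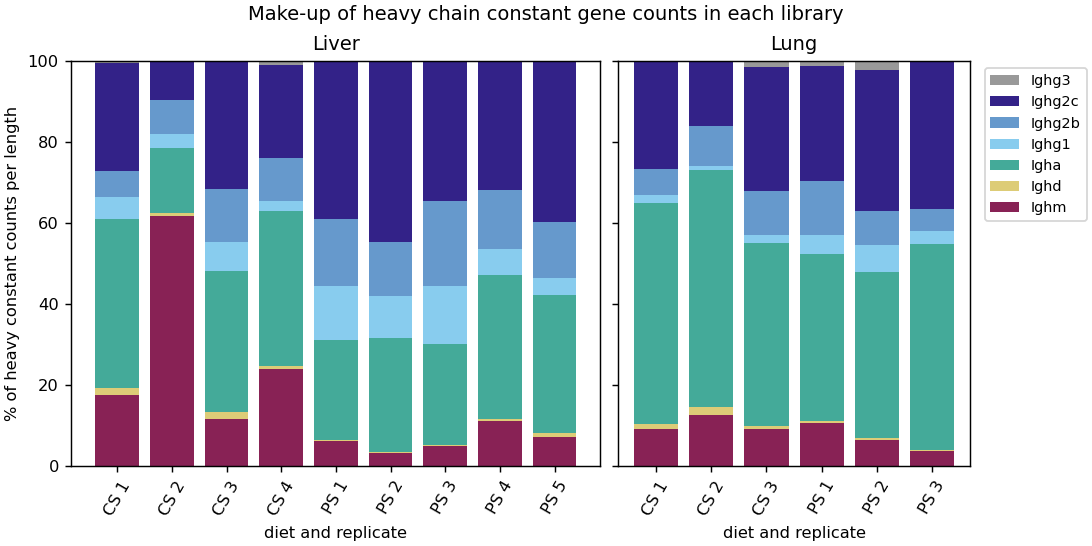
Percent of each heavy chain constant gene in the counts per gene length of each library, with livers on the left and lungs on the right. The blue shades and the grey of Ighg3 together are the IgG genes, which take 52.8% to 69.8% of each PS liver and 21.4% to 51.8% of each CS liver. Ighe, at 0 or close to it, is not drawn.

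The lengths used affect these levels. The gene length is 1326 bases for Ighg2c and 2512 to 2678 bases for the other IgG genes, so Ighg2c weighs more per count. Over the counts themselves the IgG share of the liver differed by 24.0 percentage points between the diets (exact permutation p = 0.0159), and Igha was the largest single gene with 40.8% in the CS livers and 37.5% in the PS livers. In the lung the IgG shares of the diets overlapped over the counts themselves, with a highest CS value of 36.2% and a lowest PS value of 33.4%, and with the lengths of the shortest transcripts, with 36.7% and 33.5% (exact permutation p = 0.2 for both).

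The variable segments of the heavy and kappa chains went the other way in the lung. A full antibody mRNA holds a variable segment at its 5′ end and the constant part at its 3′ end. In the CS lungs the Ighv segments had 6848, 5309 and 9431 counts, and in the PS lungs 1493, 744 and 2031 counts. The counts of the 8 heavy chain constant genes were 78122, 43144 and 82445 in the CS lungs and 116691, 133990 and 108828 in the PS lungs. Per 100 constant counts there were 8.77, 12.3 and 11.4 Ighv counts in CS and 1.28, 0.555 and 1.87 in PS. The kappa chain showed the same order, with 26.6, 40.7 and 38.2 Igkv counts per 100 Igkc counts in CS and 10.4, 5.45 and 12.2 in PS. Of 115 Ighv segments 64 were tested in the lung, and 30 were lower and 0 higher in PS (edgeR adjusted p under 0.05), and their median log2 value was -2.31. Of the 68 Igkv segments tested 6 were lower and 0 higher, and of all genes tested 4.43% were called lower. The summed lambda segment counts overlapped between the diets, with 1982, 1176 and 2542 Iglv counts in CS and 2097, 1890 and 1430 in PS, and 0 of the 3 segments tested passed in either direction, although for 1 of them every PS lung was below every CS lung. The count of lower Ighv segments was 4, 5 and 0 without CS replicates 1, 2 and 3, 1 without PS replicate 2 and 10 with at least 10 counts in every library. With DESeq2's Wald test it was 47, where 1465 of all 17016 genes with an adjusted p were called lower. These ratios were looked at after the values of the members had been seen and are given as a description.

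In the liver the ratio of variable to constant counts differed between libraries of both diets. The Ighv counts per 100 heavy chain constant counts were 8.82, 0.233, 11.3 and 3.31 in CS and 1.54, 4.45, 1.49, 7.86 and 5.19 in PS. CS replicate 2, the library with the high Ighm and Igkc, had the lowest ratio, on 8 Ighv counts beside 3430 constant counts. The share of counts from mitochondrial genes was highest in the 3 livers with the lowest ratios. It was 14.4% in CS replicate 2, 13.3% and 9.79% in PS replicates 1 and 3, and 3.33% to 6.50% in the other 6 livers, and in the lungs it was 2.94% to 3.51% in CS and 6.13%, 7.28% and 3.69% in PS. PS lung replicate 3, at 3.69%, had 1.87 Ighv counts per 100 constant counts, and CS lung replicate 3, at 3.51%, had 11.4. The Igkc log2 fold change in the 6 livers with under 7% was 0.93. Whether a difference in RNA quality or library make-up has a part in the higher constant gene counts of the PS lungs was not tested.

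**Figure D4:**
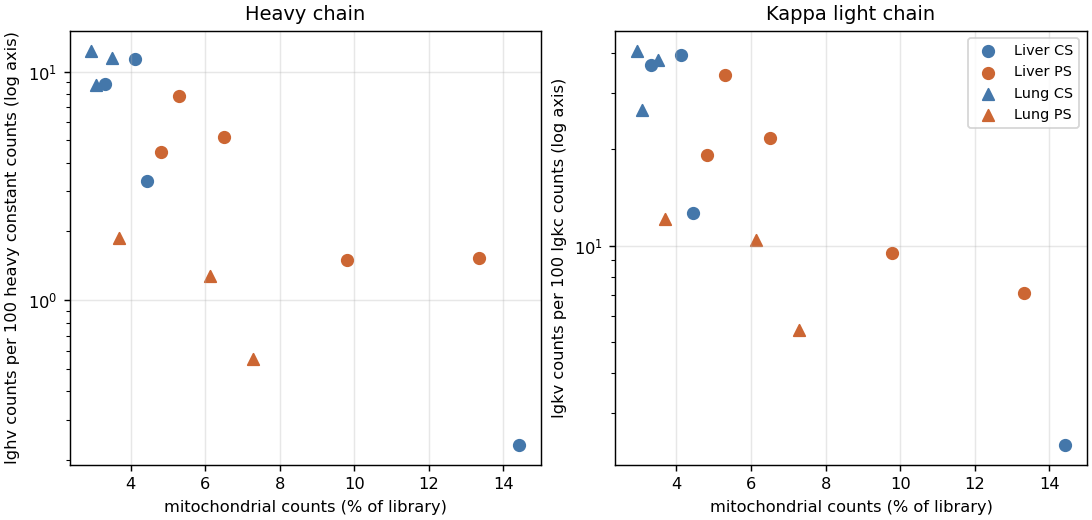
Variable segment counts per 100 constant counts (log axis) against the percent of mitochondrial counts in each library, for the heavy chain on the left and the kappa chain on the right. Circles are livers and triangles lungs. The 3 PS lungs lie below the 3 CS lungs in both panels, and the lowest point is CS liver replicate 2.

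Genes of the secretory machinery of plasma cells were compared next, in lists fixed by cell type. Of 12 plasma cell markers all were tested in the lung, 2 rose and 0 fell beside the 4.8% of all genes called higher, and the median over the list was 0.29 on the log2 scale. Derl3, which takes part in the disposal of misfolded proteins from the endoplasmic reticulum, rose from 3.75 to 5.26 CPM in CS to 8.05 to 16.2 CPM in PS (log2 fold change 1.48, SE 0.30, edgeR adjusted p = 0.0301). Fkbp11, a folding enzyme of secretory cells, rose from 2.93 to 3.75 CPM to 6.35 to 8.58 CPM (log2 fold change 1.16, SE 0.25, edgeR adjusted p = 0.0334). Both genes are also used by secretory cells other than plasma cells. Eaf2 had a log2 fold change of 1.27 (edgeR adjusted p = 0.0546), and Mzb1, a chaperone that helps assemble IgM, one of 0.61 (adjusted p = 0.146). In both every PS lung was above every CS lung. Without overlap, 5 of the 12 markers stood above and 1 below, against 17.3% and 18.8% of all genes. Tnfrsf17, the BCMA receptor that marks long-lived plasma cells, had 1.28 to 2.88 CPM in CS and 2.21 to 4.14 CPM in PS (adjusted p = 0.359), and Pou2af1 had a log2 fold change of 0.16 (adjusted p = 0.642). The plasma cell regulators Xbp1 and Prdm1 and the surface marker Sdc1 had values of -0.08, -0.67 and -0.55, with edgeR adjusted p-values of 0.769, 0.155 and 0.0905. For Sdc1 every PS lung was below every CS lung. Sdc1 and Xbp1 had 217 to 243 and 213 to 247 CPM in the CS lungs, beside 15.4 to 31.7 CPM for Mzb1. RNA came from whole lung, so their values cannot be assigned to plasma cells.

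All 13 B cell markers reported here were tested in the lung, 0 rose and 1 fell beside the 4.43% of all genes called lower, and the median log2 fold change was -0.50. Bank1, a signalling adaptor of the B cell receptor, fell from 5.86 to 9.91 CPM in CS to 2.72 to 3.57 CPM in PS (log2 fold change -1.27, SE 0.28, edgeR adjusted p = 0.0346). Ms4a1, which encodes CD20, had 14.4 to 19.9 CPM in CS and 3.75 to 11.9 CPM in PS (log2 fold change -1.08, adjusted p = 0.0867). Cd79b, a signalling chain of the receptor, had a value of -0.82 (adjusted p = 0.095), while its partner Cd79a had -0.13 (adjusted p = 0.734). The summed level of the list was 151 to 260.1 CPM in CS and 108 to 172 CPM in PS. Cxcr5, the receptor that guides B cells into follicles, fell with a log2 fold change of -1.53 (SE 0.31, edgeR adjusted p = 0.0301), the only one of 11 tested genes among the B and plasma cell cytokines, chemokines and receptors to pass. S1pr2, which holds germinal centre B cells in place but is also found in other cells, fell by 0.89 on the log2 scale (SE 0.18, edgeR adjusted p = 0.028), the only one of the 9 tested class switch and germinal centre genes to pass. The calls of Derl3, Fkbp11, Bank1, Cxcr5, S1pr2, Iglc1 and Alas2 were lost in the 4 fits that left out CS replicate 1, 2 or 3 or PS replicate 2, and Bank1 did not pass with limma on FPKM either. Over the 6 fits that left out a lung the log2 fold changes kept their direction, at 1.40 to 1.93 for Iglc1, 1.30 to 1.73 for Derl3 and -1.08 to -0.77 for S1pr2.

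**Figure D5:**
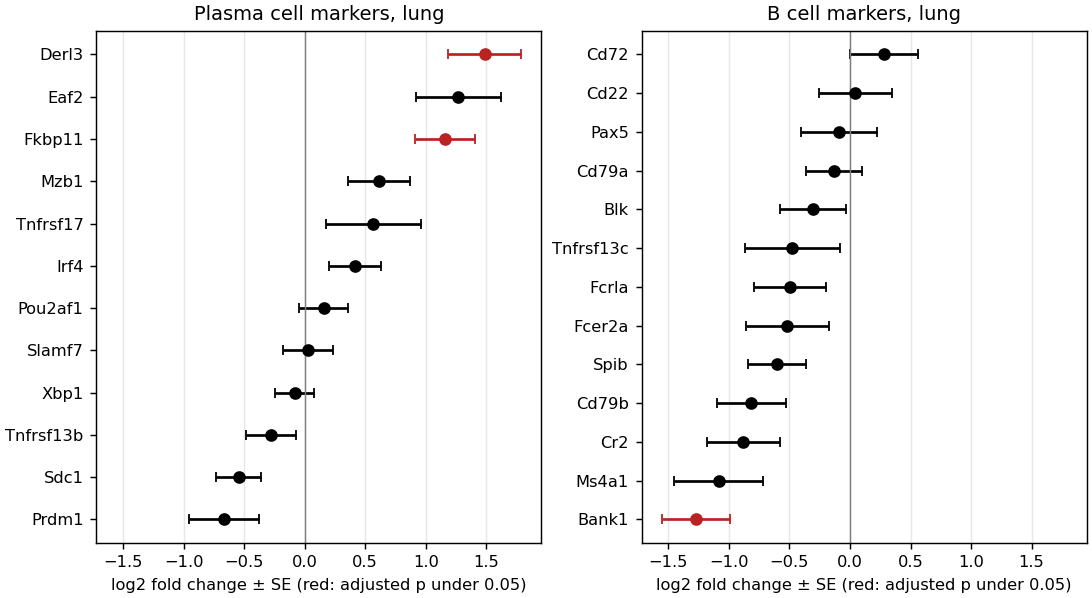
Log2 fold changes (PS minus CS) with their SE for plasma cell markers on the left and B cell markers on the right, in the lung. Red points passed an adjusted p of 0.05, and these are Derl3 and Fkbp11 above 0 and Bank1 below 0.

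Of the 13 genes for antibody receptors and transport 11 were tested in the lung and 0 passed. Fcmr, the IgM receptor of B cells, had the largest value in size at -1.11 (adjusted p = 0.0519), and Pigr, which carries joining chain-linked IgA and IgM across the epithelium, had a value of -0.71 (SE 0.54, edgeR adjusted p = 0.415), with 79.0 to 133 CPM in CS and 28.4 to 121 CPM in PS. None of 11 T cell markers passed (median 0.16), nor did any of 5 tested lymphoid tissue markers (median -0.27). Among thymus and B precursor markers only Vpreb1 was tested (0.76, adjusted p = 0.343). Of the 5 red blood cell markers Alas2 fell (log2 fold change -1.24, SE 0.28, edgeR adjusted p = 0.0354) and the globin genes Hba-a1 and Hbb-bs had values of 0.46 and -0.55 (adjusted p-values 0.336 and 0.381). The summed level of these 5 was 2191 to 2713 CPM in the CS lungs and 1515 to 3557 CPM in the PS lungs. Among lung epithelium, hepatocyte and heart muscle markers 0 passed in the lung.

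In the liver 0 genes of any of these lists passed. Only 1 of 13 B cell markers, Cd72, and 6 of 12 plasma cell markers had enough counts to be tested. Mzb1 had 0.331 to 2.70 CPM in CS and 0.449 to 1.92 CPM in PS, Tnfrsf17 had at most 3 counts in a library, and Ms4a1 at most 10. The summed level of the B cell markers was 4.47 to 12.7 CPM in CS and 4.2 to 5.49 CPM in PS. Both the T cell markers, at 6.79 to 16.9 CPM in CS and 4.37 to 9.89 CPM in PS, and the lymphoid tissue markers, at 1.92 to 17.2 CPM and 1.17 to 8.95 CPM, overlapped between the diets. Sdc1 and Xbp1, which hepatocytes also express, were the only abundant plasma cell markers, and Sdc1 had a log2 fold change of -0.77 (SE 0.29, edgeR adjusted p = 0.538).

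Likeness between the members was read for Jchain, Igha and Ighm against the 6 other members tested in both tissues. Over the 15 libraries, with log2 CPM centred within each tissue, Jchain was most like Igha (Pearson r = 0.93), followed by Igkc (0.85), Ighg2c (0.79), Ighg2b (0.76) and Ighg1 (0.75), and was less like Ighm (0.45). Ighm had r = 0.61 with Igkc, 0.38 with Igha and -0.03 with Ighg2c, over libraries that include CS liver replicate 2 with its 131 CPM of Ighm. The libraries share depth, tissue and diet, so these values are descriptions only. Among the 12398 genes tested in both tissues, the 5 genes outside the immunoglobulins most like Jchain were Gsdme (0.90), Med6, Naip5, Lbhd1 and mt-Co2 (0.80), and those most like Igha were Gsdme (0.85), Wdr83, Slc39a5, Rbm12b1 and Gm12918 (0.81). Those most like Ighm were Lpcat2 (0.94), Cd52, Casp4, Lyl1 and 2610301B20Rik (0.91).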

How the data were processed

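Total RNA of liver and lung was enriched for poly-A mRNA and sequenced as pairs of 150 base reads. The authors aligned the reads to mm10 with HISAT2 2.0.5 and counted them per gene with featureCounts 1.5.0-p3, and their comparisons used DESeq2 1.20.0. The strand setting of the counting is not given in the sources used here. The deposited counts are raw, and the deposited FPKM values are these counts per gene length with a factor for each library. Groups came from the labels.

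From the counts of all genes, PS was compared with CS in each tissue by edgeR 4.0.16 (R 4.3.3), using TMM scaling, filterByExpr at its defaults and robust quasi-likelihood tests. Benjamini-Hochberg adjustment ran over all 13195 liver or 16717 lung genes tested, with 0.05 as the threshold, and the fits were tested on simulated data. SEs were derived from the test statistic. Isotype shares were compared by two-sided exact permutation tests. CPM values carry the TMM scaling. Floors of 3 counts cover counting error only.

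The members, lists and tests were chosen with earlier results of these data known. All 10 members were named. From each other list at most the 3 tested genes with the largest log2 fold change in a tissue were named, and always Mzb1, Tnfrsf17, Derl3, Pou2af1, Ms4a1, Cd79a and Cd79b. A further B cell marker is not reported here, and the counts and sums of that list leave it out. For Jchain, Igha and Ighm the 5 genes with the most alike pattern were added, on log2 CPM with 0.5 added. Xbp1, Prdm1 and Sdc1 in the lung, Cd72, Iglc1 and the variable segments were named after their values were seen where that rule did not cover them. The alternatives were DESeq2 size factors, DESeq2 1.42.0's Wald test, a minimum of 10 counts in every library or no filter, limma 3.58.1 on log2(FPKM + 1) and log2(FPKM + 0.1), immunoglobulin genes left out of the scaling, a replicate block, removal of the trend over gene length (loess, span 0.3) and leaving out each library. The length trend, shares by the shortest transcript and the 6 livers with under 7% mitochondrial counts were added after seeing the data. No 2 libraries of a group agreed within counting noise.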

Additional observations from a re-analysis of the deposited data

Results flagged for a closer look

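Among 42 sets of values over the livers of a diet (member levels, shares, ratios of variable to constant counts and mitochondrial shares), 5 had 1 library far from the others by Dixon's criterion, which chance meets in about 1 set in 20. CS liver replicate 2 was far above the other 3 CS livers for Ighm, at 131 CPM beside 4.70 to 11.7 CPM, and for Igkc, at 256 CPM beside 24.9 to 37.5 CPM. Its mitochondrial share of 14.4% was also apart from the 3.33% to 4.45% of the other CS livers. PS liver replicate 2 was far above the other PS livers for Igha, at 56.5 CPM beside 27.5 to 33.3 CPM, and for Jchain, at 17.4 CPM beside 9.74 to 11.5 CPM. Of the 9 members tested for a difference in diet effect between the tissues, 0 passed an edgeR adjusted p of 0.05.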

How the results depend on the processing

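Of the log2 fold changes of the members, 394 kept their direction and their side of the threshold under the alternatives, 11 passed it in addition and 16 turned. The number of members called higher in the lung was 0, and it became 5 with DESeq2's Wald test, 2 with no filter, 2 with at least 10 counts in every library, 1 with the trend over gene length removed, and 0 to 1 over the fits that left out a library. The cause of these changes was not tested. Igkc in the liver turned to 0.30 on log2(FPKM + 1), 0.31 on log2(FPKM + 0.1), 0.46 with the replicate block and 0.93 in the 6 livers with under 7% mitochondrial counts, and ranged from -0.61 to 1.20 when a library was left out. Igha in the liver ranged from -0.032 to 0.55 when a library was left out and reached 0.65 over all alternatives. The difference between the tissues ranged from -0.40 to 0.42 for Ighg2c, from -0.59 to 0.63 for Ighg2b and from -0.044 to 0.56 for Jchain when a library was left out.

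The number of all genes called in the liver was 1 and became 131 with DESeq2's Wald test, 26 with no filter, 2 with at least 10 counts in every library, 6 and 4 with limma on log2(FPKM + 1) and log2(FPKM + 0.1), 0 with the trend over gene length removed and 8 in the 6 livers with under 7% mitochondrial counts. It ranged from 0 to 65 when a library was left out, the highest without CS replicate 2. In the lung it was 1542, became 2992 with DESeq2's Wald test and ranged from 0 (without CS replicate 3) to 2949 (without PS replicate 1). For the difference between the tissues it was 4, became 0 in the 12 libraries of the 6 mice with both tissues and 0 with the replicate block by mouse, and ranged from 0 to 12.

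The replicate block gave 0 calls over all genes in the liver, where it leaves out PS replicate 5, and 1623 in the lung, and no member passed with it. Same-numbered libraries did not deviate together, with correlations from -0.411 to -0.024 in the liver and from -0.005 to 0.091 in the lung, so the numbers were not taken as pairs. In the 6 livers with under 7% mitochondrial counts, where no exact p below 0.1 is possible, the diets differed by 17.0 percentage points in the IgG share, -10.4 in the Ighm share, 3.80 in the Ighg2b share, 11.6 in the Ighg2c share and -0.929 in the Ighd share. When a library was left out the liver differences ranged from 10.9 to 18.2 percentage points for Ighg2c, from -1.14 to -0.79 for Ighd and from -0.30 to 1.11 for the kappa share, and in the lung from -1.99 to 1.91 for Ighg2b and from -0.218 to 0.896 for the kappa share. The lengths of the shortest transcripts and undivided counts turned no share. With 3 lungs a group and few antibody counts in the liver, differences within the spread given here were not detectable.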
